A study of Homo sapiens with 12 samples.

Results

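EGFR, 4 genes for its ligands (AREG, EREG, HBEGF and TGFA) and ERRFI1, an intracellular inhibitor of the receptor, were followed through 12 RNA-seq libraries of HCT116 cells. These 6 genes were taken by name and all 6 were among the 26364 genes listed in the count files. HCT116 is a human colon carcinoma line. Wild-type (WT) cells and p65-deficient cells were compared, and each cell line was left without inhibitor, exposed to 5 µM camptothecin (CPT) over 2 h, which traps topoisomerase 1 (TOP1) on DNA, or exposed likewise to 5 µM ICRF193, a catalytic inhibitor of topoisomerase 2 (TOP2). Each of these 6 states was sampled without TNFα (0 h) and after addition of 20 ng/ml TNFα for 1 h, so every condition is 1 library and no condition has a replicate. The labels call the p65-deficient cells shRNA p65, while the methods describe 1 single-cell clone made with CRISPR-Cas9 against the third exon of RELA, the gene for p65. A difference between the cell lines is therefore a difference between 1 clone and its parent. According to the treatment protocol the inhibitor was given 2 h ahead of TNFα, and whether the 0 h and 1 h libraries had the inhibitor for the same total time is not stated.

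EGFR is a receptor tyrosine kinase of the cell surface that passes growth signals to the RAS and MAP kinase cascade. Its ligands are made as membrane-anchored precursors and are released by metalloproteases such as ADAM17. Transcription of several ligand genes and of ERRFI1 is itself switched on by MAP kinase signalling, and the ERRFI1 protein (MIG6) binds the kinase domain of EGFR and shuts it down, which closes a negative feedback loop. In colon epithelium and colorectal cancer AREG and EREG are the ligands best known for feeding such a loop in an autocrine manner.

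The libraries held 8101212 to 22051046 counted reads, and 4 libraries of the p65-deficient clone (ICRF193 at 0 h and the 3 at 1 h) held only 8101212 to 8755001. RELA stood between 694 and 909 normalized read counts in the 6 WT libraries and between 548 and 673 in the 6 libraries of the clone, without overlap; gene counts do not show the edit itself. NFKBIA, an immediate TNFα target, went from 909 to 8758 normalized counts in WT cells without inhibitor and from 1030 to 1122 in the clone. The epithelial markers EPCAM, CDH1, KRT8, KRT18, KRT19 and CDX2 were read in every library, whereas VIL1 had at most 4 reads and CDX1 none. Of 10 immune, fibroblast and endothelial markers only COL1A1 (57 to 227 reads) and VWF (4 to 26 reads) exceeded 7 reads in any library, and the summed fibroblast markers stood at 118 to 197 normalized counts with CPT and 74.6 to 104 without it. Whether this bears on the results below was not tested.

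Levels are given as normalized read counts, that is, reads divided by a DESeq2 size factor. To compare different genes, they were divided by the exonic length in kb. On this scale ERRFI1 was the most abundant of the 6 by its median over the 12 libraries (2905 normalized counts per kb, range 841 to 4754), followed by EREG (2142, range 1022 to 3056). By their means they lay above 98.4% and 97.6% of the 21096 genes with a read, and their ranges overlap. TGFA followed with a median of 301 (245 to 332), EGFR with 140 (118 to 163) and HBEGF with 110 (51.6 to 327). EREG and TGFA did not overlap, nor did TGFA and EGFR, while the range of HBEGF covered that of EGFR. The AREG row gave 26.5 normalized counts per kb (15.6 to 50.9), but this level is not comparable with the others. The hg19 annotation used for counting places AREG at 2 sites on chromosome 4, chr4:75310815-75320726 and chr4:75480591-75490485, with 6 exons of identical lengths at each. Reads that map to both copies are not counted under the counter's default settings, which the file headers do not override, so the AREG counts (29 to 162 reads per library) hold an unknown share of its transcripts and have wide counting errors.

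**Figure D1:**
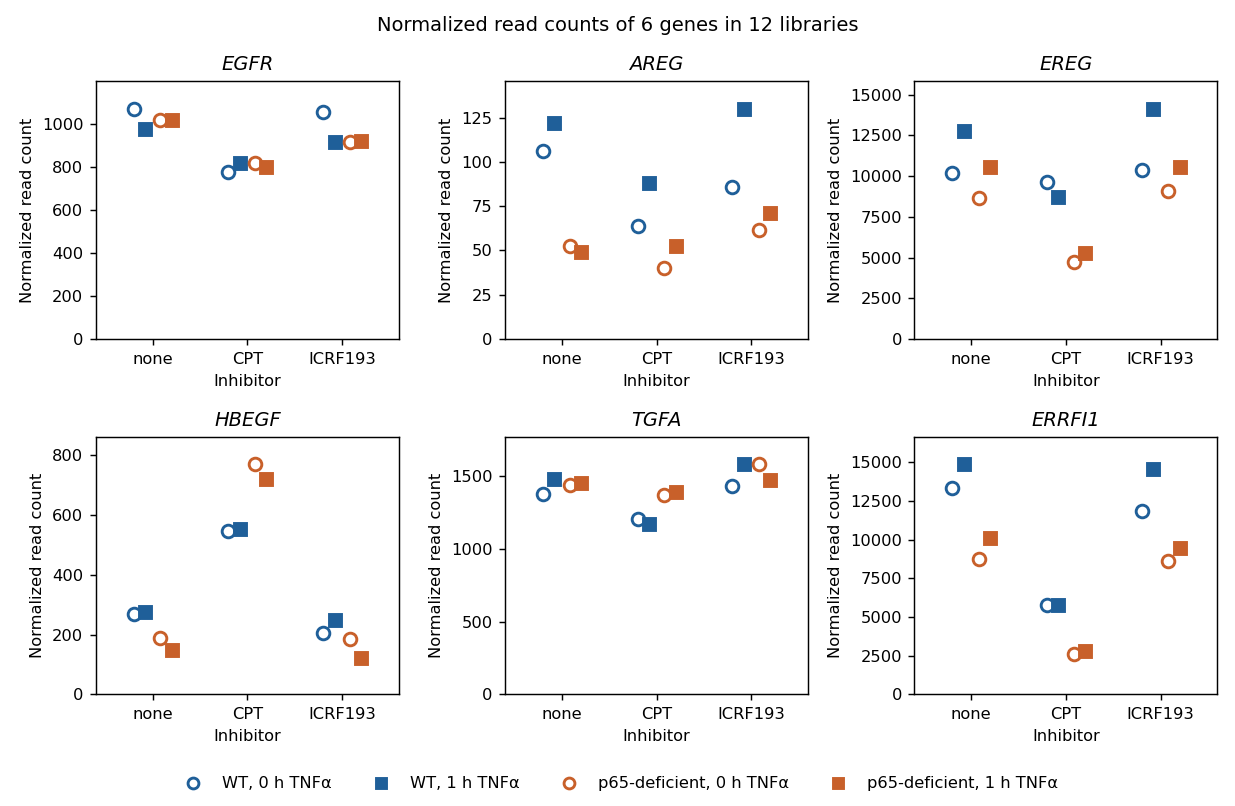
Normalized read counts (vertical axes, starting at 0) of the 6 genes by inhibitor (horizontal axes); each point is 1 library, blue for WT and orange for p65-deficient cells, open circles for 0 h and filled squares for 1 h TNFα. With CPT all 4 HBEGF values lie above and all 4 ERRFI1 values below the libraries without inhibitor, in both cell lines.

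The ligand genes lie in different places and differ in size. EREG (chr4:75230860-75254477, plus strand, hg19) and the AREG copies belong to a cluster of EGF family genes on chromosome 4 that also holds EPGN and BTC. HBEGF (chr5:139712428-139726188, minus strand) spans 13.8 kb and ERRFI1 (chr1:8071779-8086393, minus strand) 14.6 kb. EGFR (chr7:55086725-55275031, plus strand) spans 188.3 kb and TGFA (chr2:70674412-70781147, minus strand) 106.7 kb.

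The promoters of EREG and AREG, which are neighbours on chromosome 4, are shown beside those of HBEGF and ERRFI1, the 2 genes with the largest responses to CPT in opposite directions. Each line gives the 100 bases just before the RefSeq transcription start (GRCh38.p14), 5′ to 3′ on the strand of the gene; capitals mark a TATA box (TATAAA) or a complete cAMP response element (TGACGTCA).
EREG, chr4:74365045-74365144, plus strand: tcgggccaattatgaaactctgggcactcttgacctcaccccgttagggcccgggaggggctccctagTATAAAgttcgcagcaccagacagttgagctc
AREG, chr4:74445036-74445135, plus strand: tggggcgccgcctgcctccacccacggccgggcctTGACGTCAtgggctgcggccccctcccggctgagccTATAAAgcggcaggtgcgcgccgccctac
HBEGF, chr5:140346604-140346703, minus strand: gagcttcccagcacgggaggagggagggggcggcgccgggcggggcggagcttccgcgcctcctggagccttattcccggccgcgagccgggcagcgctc
ERRFI1, chr1:8026310-8026409, minus strand: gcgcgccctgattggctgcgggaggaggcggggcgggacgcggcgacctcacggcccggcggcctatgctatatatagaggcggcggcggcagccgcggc

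All 6 genes had a promoter window in RefSeq (250 bases before to 50 after the start), and EGFR and TGFA had 2 windows each. TATAAA was found 32 bases before the start of EREG and 29 before that of AREG, and 11.5% of all 35116 windows hold it on either strand. The complete cAMP response element was found only in the AREG window among the members, 65 bases before the start; 1.85% of all windows hold it. Its shorter core TGACG, which is contained in the complete element, was also found at 125 bases before the start of EREG and at 154 before the first TGFA start, against 24.6% of all windows. Neither a TATAAA nor any other searched motif was found in the HBEGF and ERRFI1 windows. The ERRFI1 line above does hold the TATA-like stretch tatatata, which a search for the exact letters TATAAA does not cover. The other searches, on both strands, were for the AP-1 element (4.95% of all windows), the serum response element (1.29%), the κB element (11.3%) and the EGR element (5.77%). AP-1 elements occurred in the second EGFR window, which starts inside the gene, together with TATAAA, and a κB element in the first TGFA window. The 250 bases before the start were 76.4% G or C for HBEGF, 75.2% for ERRFI1, 65.2% for AREG and 58.0% for EREG, with a median of 58.0% over all windows. These matches describe the letters in the windows only.

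To determine how TOP1 inhibition affected the 6 genes, the 4 CPT libraries were compared with the 4 libraries without inhibitor in pairs matched for cell line and TNFα. HBEGF rose and the other 5 genes fell. All log2 fold changes in this and the following comparisons come from edgeR's quasi-likelihood test with the matched pair as a block, and a gene counts as called with a Benjamini-Hochberg adjusted p under 0.05 over all genes tested. The pairs come from different conditions, so the p-values measure how alike a change was across these conditions. In bulk RNA, fewer cells of a kind and less RNA per cell cannot be told apart. Every scaling used sets a gene against the other genes of its library, so a change common to most RNA would not show. Of 14573 genes tested, 23.1% were called higher and 24.8% lower with CPT, so a call as such is common here.

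HBEGF encodes heparin-binding EGF-like growth factor, a ligand of EGFR and ERBB4. It counted 268 and 274 normalized reads in WT cells without inhibitor at 0 h and 1 h TNFα, and 546 and 553 with CPT. In the p65-deficient clone it counted 188 and 150 without inhibitor, and 770 and 719 with CPT. The lowest CPT library was thus above the highest library without inhibitor, which held for 17.7% of all genes tested. The log2 fold change was 1.51 (SE 0.18, adjusted p = 3.2e-05), a 2.85-fold rise, and the 4 single pairs ranged from 1.01 to 2.27.

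ERRFI1 showed the largest fall. Without inhibitor it counted 13359 and 14874 normalized reads in WT cells and 8743 and 10120 in the clone. With CPT it counted 5791 and 5748 in WT cells and 2631 and 2836 in the clone, so the groups did not overlap (19.7% of the genes tested did not overlap in the downward direction). The log2 fold change was -1.54 (SE 0.091, adjusted p = 1.6e-07), which leaves 0.343 of the level without inhibitor.

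EREG encodes the ligand epiregulin. In WT cells at 0 h it went from 10200 to 9630 normalized reads, a log2 ratio of -0.083 with a 95% counting interval from -0.12 to -0.048. In WT cells at 1 h TNFα it went from 12755 to 8742. In the clone it went from 8647 to 4729 at 0 h and from 10550 to 5289 at 1 h. It was lower with CPT in 4 of 4 pairs, but the groups overlapped across cell lines, with a log2 fold change of -0.63 (SE 0.12, adjusted p = 0.00093). Without the block the adjusted p was 0.052 (range over the alternatives 1.5e-09 to 0.052).

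AREG, the ligand amphiregulin, went from 106 to 64.0 and from 122 to 88.3 normalized reads in WT cells. In the clone it went from 52.6 to 39.8 at 0 h, while at 1 h it counted 49.3 without inhibitor and 52.4 with CPT. The log2 fold change was -0.46 (SE 0.15, adjusted p = 0.021), lower in 3 of 4 pairs. This call was lost with DESeq2 (adjusted p = 0.15), without the block (0.30), without the WT pair at 0 h (0.12) and without the WT pair at 1 h (0.085), within a range of 0.0062 to 0.30 over the alternatives.

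TGFA, the ligand TGF-α, fell least. It went from 1373 to 1202 and from 1479 to 1169 normalized reads in WT cells, and in the clone from 1440 to 1366 and from 1453 to 1392. The log2 fold change was -0.18 (SE 0.056, adjusted p = 0.019). The counting intervals of the 2 pairs from the clone included 0, and the call was lost with DESeq2 (adjusted p = 0.060), without the block (0.060) and without the WT pair at 1 h (0.14; range over the alternatives 0.0065 to 0.14).

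EGFR itself counted 1071 and 978 normalized reads in WT cells without inhibitor and 1020 and 1016 in the clone. With CPT it counted 778 and 819 in WT cells and 817 and 802 in the clone. The groups did not overlap, which held in the downward direction for 19.7% of all genes tested. The log2 fold change of -0.36 (SE 0.057, adjusted p = 0.00037) corresponds to 0.781 of the level without inhibitor. EGFR-AS1, chosen after its values were seen, is an antisense RNA inside EGFR that shares 186 exonic bases with it. It had 11 to 32 reads without inhibitor and 0 to 2 with CPT (log2 fold change -3.95, SE 0.45, adjusted p = 2.7e-05). The library kit preserved strand but the reads were counted without it. Only 6.59% of the exonic bases of EGFR-AS1 lie in EGFR exons, and the others lie elsewhere within EGFR. Reads of unspliced EGFR RNA over those bases cannot be told apart from EGFR-AS1. Which RNA fell was not tested.

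**Figure D2:**
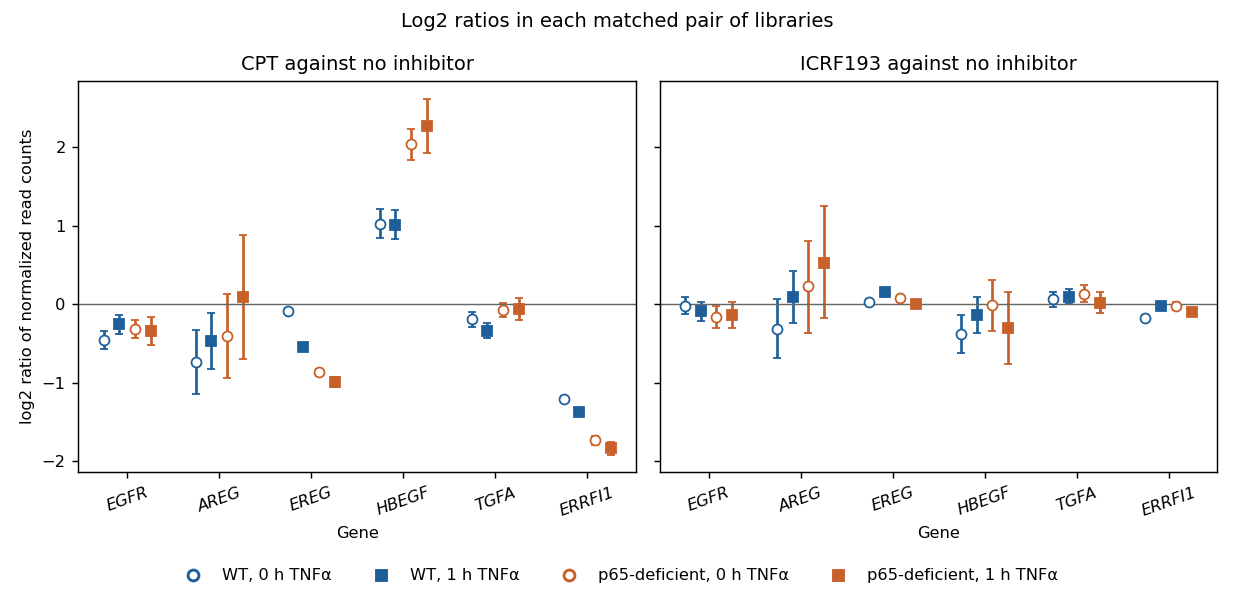
Log2 ratios of normalized read counts (vertical axis) for each gene (horizontal axis) in each of 4 matched pairs, for CPT (left) and ICRF193 (right) against no inhibitor; bars are exact 95% counting intervals. The CPT ratios reach 2.27 for HBEGF and -1.84 for ERRFI1, whereas all ICRF193 ratios lie between -0.38 and 0.53.

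The make-up of the ligand transcripts differed between libraries with and without CPT. Over EREG, TGFA, HBEGF, BTC, EGF and EPGN, in normalized counts per kb and leaving out AREG because of its 2 copies, EREG made up 84.0% to 87.0% in the 4 WT libraries without CPT and 79.1% to 80.2% in the 2 with it. In the clone EREG made up 81.9% to 85.5% without CPT and 61.3% to 64.7% with it. HBEGF made up 1.93% to 3.52% in the clone without CPT and 17.3% to 19.6% with it; in WT cells it made up 3.01% to 4.33% without CPT and 8.92% to 9.82% with it. EGF had at most 11 reads and EPGN at most 8 in any library. The level of ERRFI1 per kb was 18.0 to 33.4 times that of EGFR in the 8 libraries without CPT and 6.76 to 15.6 times with CPT. These shares are given as a description.

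**Figure D3:**
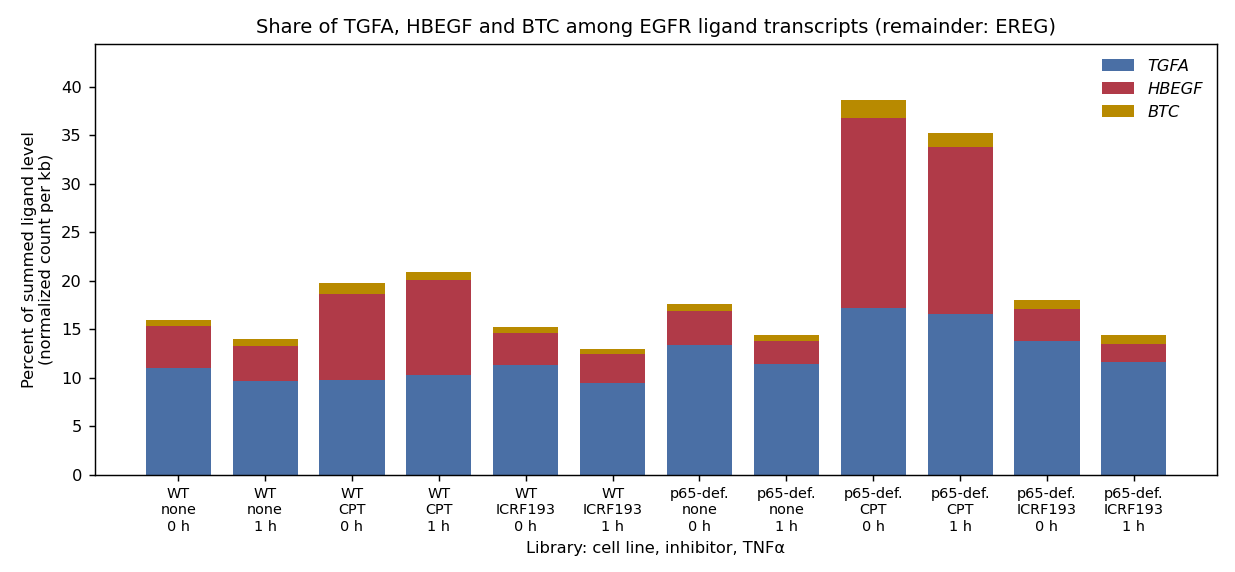
Percent of the summed ligand level (normalized count per kb over EREG, TGFA, HBEGF, BTC, EGF and EPGN; vertical axis, starting at 0) taken by TGFA, HBEGF and BTC in each of the 12 libraries; the remainder is EREG, with EGF and EPGN at 0.177% together at most. The 2 CPT libraries of the p65-deficient clone stand at 35.3% to 38.7% outside EREG and the 2 WT CPT libraries at 19.8% to 20.9%, against 13.0% to 18.1% in the 8 libraries without CPT.

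To see how the rest of the pathway behaved under CPT, 42 other genes were counted by role. Of the 38 that could be tested, 5 were called higher and 13 lower, where 23.1% and 24.8% of all genes tested were, with a median log2 fold change of -0.094 against 0.025 over all genes. The group with most calls was that of the other feedback inhibitors and ubiquitin ligases, of which 10 of 13 fell, 0 rose and 3 (SPRY2, CBL and CBLC, named to complete the count) were not called, with a median of -0.73. LRIG3 (log2 fold change -1.90, SE 0.14) and LRIG2 (-1.61, SE 0.093) encode transmembrane proteins of the LRIG family, whose member LRIG1 restrains ERBB receptors. They were placed in this group by family, and whether they restrain these receptors was not tested. SOCS5 (-1.60, SE 0.10) encodes a suppressor of cytokine signalling that promotes EGFR degradation. All 3 passed with adjusted p values of at most 1.1e-06.

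Fewer genes of the other roles were called. Of the 4 shedding genes only RHBDF1, an inactive rhomboid protein that regulates ADAM17, rose (0.63, SE 0.095, adjusted p = 0.00022), while the log2 fold changes of ADAM10, ADAM17 and RHBDF2 were not called. Of 15 adaptor and MAP kinase genes 4 rose and 3 fell, which is near the shares of 23.1% and 24.8% over all genes. Named for the size of their rises are MAPK3 (0.20, SE 0.072, adjusted p = 0.040) and MAP2K2 (0.16, SE 0.055, adjusted p = 0.030), the genes for the kinases ERK1 and MEK2. The receptors ERBB2 and ERBB3 and the 4 other ligands with enough reads (BTC, NRG1, NRG2 and NRG4) were not called. EGF, EPGN, NRG3 and ERBB4 had too few reads for a test.

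**Figure D4:**
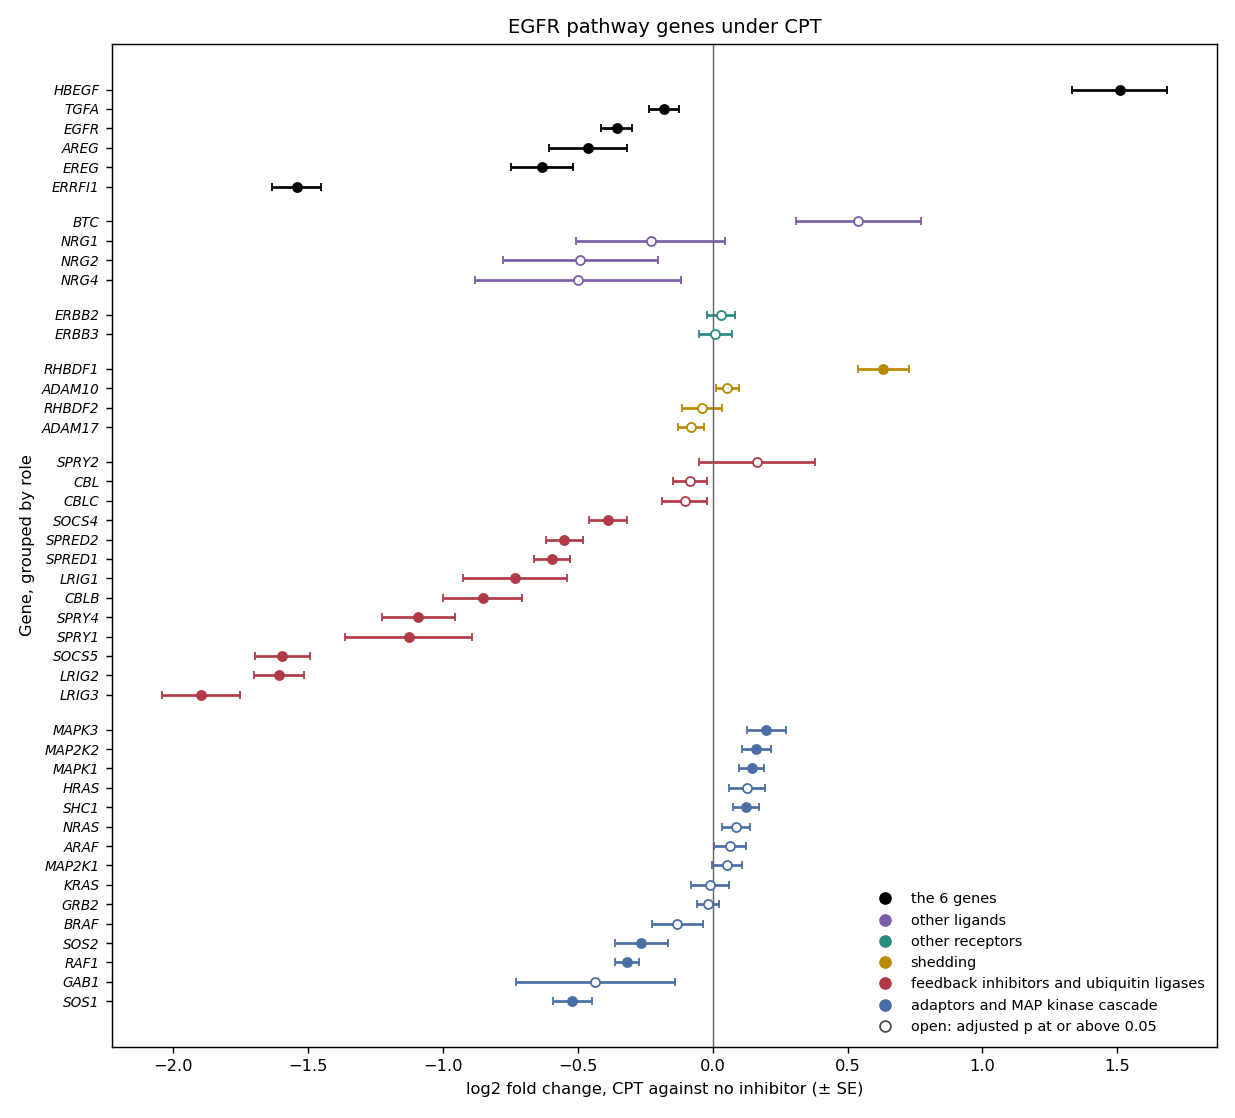
Log2 fold change under CPT (horizontal axis) with its SE for the 6 genes and 38 other EGFR pathway genes grouped by role (vertical axis); filled points have an adjusted p under 0.05. The genes listed as feedback inhibitors and ubiquitin ligases reach from 0.17 for SPRY2 to -1.90 for LRIG3. Of this group 10 of the 13 points are filled, all of them below 0.

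In contrast, ICRF193 left none of the 6 genes called by edgeR (adjusted p 0.22 to 0.96), where 2.16% of 14101 genes were called in either direction. DESeq2 called 0 as well, and 4 of the 6 had an unadjusted p under 0.05 with edgeR and 1 with DESeq2. HBEGF counted 206 and 250 normalized reads in WT cells and 186 and 122 in the clone with ICRF193, all lower than the matched library without inhibitor, with a log2 fold change of -0.21 (95% interval -0.37 to -0.052, adjusted p = 0.22). ERRFI1 counted 11847 and 14580 in WT cells and 8610 and 9436 in the clone (-0.080, interval -0.15 to -0.0074, adjusted p = 0.37), and it passed when the clone pair at 0 h was left out (-0.10, adjusted p = 0.014; range over the alternatives 0.014 to 1.0). The clone pair at 0 h set an ICRF193 library of 8755001 reads against one of 20524958 without inhibitor. Whether this bears on the ERRFI1 result was not tested. For AREG the interval was the widest, from -0.21 to 0.26. Of the 38 other pathway genes only SPRY4, a Sprouty protein that dampens RAS and MAP kinase signalling, was called (-0.27, SE 0.046, adjusted p = 9.8e-05).

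When the 4 CPT libraries were compared with the 4 ICRF193 libraries directly, all 6 genes differed. HBEGF was higher with CPT (log2 fold change 1.68, SE 0.16, adjusted p = 1.4e-06), where 21.0% of 14526 genes were higher. ERRFI1 (-1.47, SE 0.094, adjusted p = 2.5e-08), EREG (-0.71, SE 0.11, adjusted p = 0.00011), AREG (-0.54, SE 0.14, adjusted p = 0.0060), TGFA (-0.27, SE 0.062, adjusted p = 0.0026) and EGFR (-0.27, SE 0.066, adjusted p = 0.0045) were lower, where 25.1% of the genes were. These values share the CPT libraries with the comparison against no inhibitor. AREG lost its call with DESeq2 (adjusted p = 0.072), without the block (0.14) and without the WT pair at 1 h (0.051; range over the alternatives 0.0015 to 0.14). Among the other genes listed as feedback inhibitors and ubiquitin ligases 11 of 13 were lower with CPT than with ICRF193.

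The p65-deficient clone differed from WT cells in 3 of the 6 genes. AREG, EREG and ERRFI1 were lower in the clone in 6 of 6 matched pairs, and no member was called higher. Over all 14766 genes tested, 16.0% were called lower and 14.2% higher. AREG counted 64.0 to 130 normalized reads in WT cells (median 97.3) and 39.8 to 71.1 in the clone (median 52.5), a log2 fold change of -0.85 (SE 0.12, adjusted p = 9.2e-05). ERRFI1 counted 5748 to 14874 (median 12603) against 2631 to 10120 (median 8676), with -0.72 (SE 0.076, adjusted p = 7.1e-06). EREG counted 8742 to 14143 (median 10292) against 4729 to 10555 (median 8869), with -0.47 (SE 0.088, adjusted p = 0.0011). The ranges of all 3 genes overlapped between the cell lines, since they also hold the inhibitor and TNFα.

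EGFR (-0.024, 95% interval -0.13 to 0.078, adjusted p = 0.74) and TGFA (0.092, interval -0.0085 to 0.19, adjusted p = 0.15) were not called between the cell lines. With scaling by total counts TGFA was called higher in the clone (0.13, adjusted p = 0.048; range over the alternatives 0.048 to 0.58). HBEGF was not called either (-0.17, interval -0.51 to 0.17, adjusted p = 0.46): it was lower in the clone in the 4 pairs without CPT and higher in the 2 pairs with CPT, and its value turned to 0.032 without the block. Because 4 libraries of the clone were shallow, the comparison was repeated with the 2 pairs of similar depth, no inhibitor and CPT at 0 h. There ERRFI1 (-0.87, adjusted p = 0.00049) and EREG (-0.63, adjusted p = 0.021) were still lower, whereas AREG with the same size of change (-0.87) had an adjusted p of 0.064 and HBEGF stood at 0.031. These values pool 2 unlike pairs. Without inhibitor and with CPT the log2 ratios were -0.61 and -1.14 for ERRFI1 and -0.24 and -1.03 for EREG. They were -1.02 and -0.68 for AREG and -0.51 and 0.50 for HBEGF. Over the alternatives the adjusted p reached 0.32 for ERRFI1 and 0.21 for EREG, both without the block, and the lowest values were 5.0e-33 and 1.4e-16. Among the other pathway genes 9 of 38 were called higher and 5 lower in the clone, where 14.2% and 16.0% of all 14766 genes tested were. LRIG3 (0.74, SE 0.11, adjusted p = 0.00015) and ADAM10 (0.42, SE 0.039, adjusted p = 1.7e-06), a protease that releases EGFR ligands, were among the higher ones. NRG1, a ligand of ERBB3 and ERBB4, was among the lower ones (-0.81, SE 0.24, adjusted p = 0.019).

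The response to CPT itself was then compared between the cell lines. The rise of HBEGF was larger in the clone, with log2 ratios of 2.03 and 2.27 at 0 h and 1 h TNFα against 1.03 and 1.01 in WT cells. The difference of 1.07 (SE 0.13, adjusted p = 0.00012) passed where 2.39% of 14573 genes were called with a larger and 2.38% with a smaller value in the clone. The fall of ERRFI1 was deeper in the clone, with -1.73 and -1.84 against -1.21 and -1.37, a difference of -0.52 (SE 0.080, adjusted p = 0.00098). The fall of EREG was deeper as well, with -0.87 and -0.996 against -0.083 and -0.55, a difference of -0.64 (SE 0.11, adjusted p = 0.0024), but DESeq2 did not call it (adjusted p = 0.50; range over the alternatives 2.3e-16 to 0.50). The differences were 0.33 (SE 0.27) for AREG, 0.17 (SE 0.091) for TGFA and 0.0069 (SE 0.10) for EGFR, none of them called. SPRY4 was the only other pathway gene called here (0.75, SE 0.13, adjusted p = 0.0030), that is, its fall under CPT was smaller in the clone.

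After TNFα the log2 fold changes of the 6 genes lay between -0.24 and 0.40 in both cell lines. In WT cells none was called by edgeR (adjusted p 0.24 to 1.0), where 0.640% of 14226 genes were called in either direction; DESeq2 called 0, and 3 of the 6 had an unadjusted p under 0.05 with edgeR and 0 with DESeq2. AREG went from 106 to 122 normalized reads without inhibitor, from 64.0 to 88.3 with CPT and from 85.7 to 130 with ICRF193, a log2 fold change of 0.40 (SE 0.12, adjusted p = 0.26). EREG went from 10200 to 12755 without inhibitor and from 10384 to 14143 with ICRF193, but from 9630 to 8742 with CPT (0.21, SE 0.062, adjusted p = 0.27). ERRFI1 went from 13359 to 14874 and from 11847 to 14580, and with CPT from 5791 to 5748 (0.15, SE 0.044, adjusted p = 0.24). Without the CPT pair EREG (0.38, adjusted p = 1.0e-13), ERRFI1 (0.22, adjusted p = 4.5e-06) and EGFR (-0.17, adjusted p = 0.040) were called, and without the filter on low counts EREG (adjusted p = 1.0e-06) and ERRFI1 (0.0053); over all alternatives the adjusted p of the 3 genes reached 1.0.

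In the p65-deficient clone the libraries without inhibitor held 20524958 reads at 0 h and 8101212 at 1 h TNFα. Those with CPT held 18502365 and 8154407, and those with ICRF193 8755001 and 8676666. Depth and TNFα cannot be told apart in the pairs without inhibitor and with CPT. EREG was the only one of the 6 genes called after TNFα in the clone. It went from 8647 to 10550 normalized reads without inhibitor, from 4729 to 5289 with CPT and from 9091 to 10555 with ICRF193, a log2 fold change of 0.23 (SE 0.045, adjusted p = 0.0093) where 0.264% of 13267 genes were called higher. This call was lost with DESeq2 (adjusted p = 0.074), without the block (1.0) and without the pair that had no inhibitor (0.40; range over the alternatives 0.00090 to 1.0). ERRFI1 was higher in 3 of 3 pairs (0.16, SE 0.042, adjusted p = 0.079) and passed without the ICRF193 pair (adjusted p = 0.0061, range 0.0061 to 1.0). That fit holds only the pairs that differ in depth. The TNFα effect was not called different between WT cells and the clone for any of the 6 genes (0.237% of 14766 genes were called), with 1 unadjusted p under 0.05 by edgeR and 1 by DESeq2, which called 0 as well. The difference was -0.016 for EREG (95% interval -0.22 to 0.18), -0.0074 for ERRFI1 (-0.15 to 0.14) and 0.33 for HBEGF (0.072 to 0.59, adjusted p = 0.43). These differences average over the inhibitor states. For EREG in WT cells the log2 ratio was -0.14 with CPT, 0.32 without inhibitor and 0.45 with ICRF193.

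**Figure D5:**
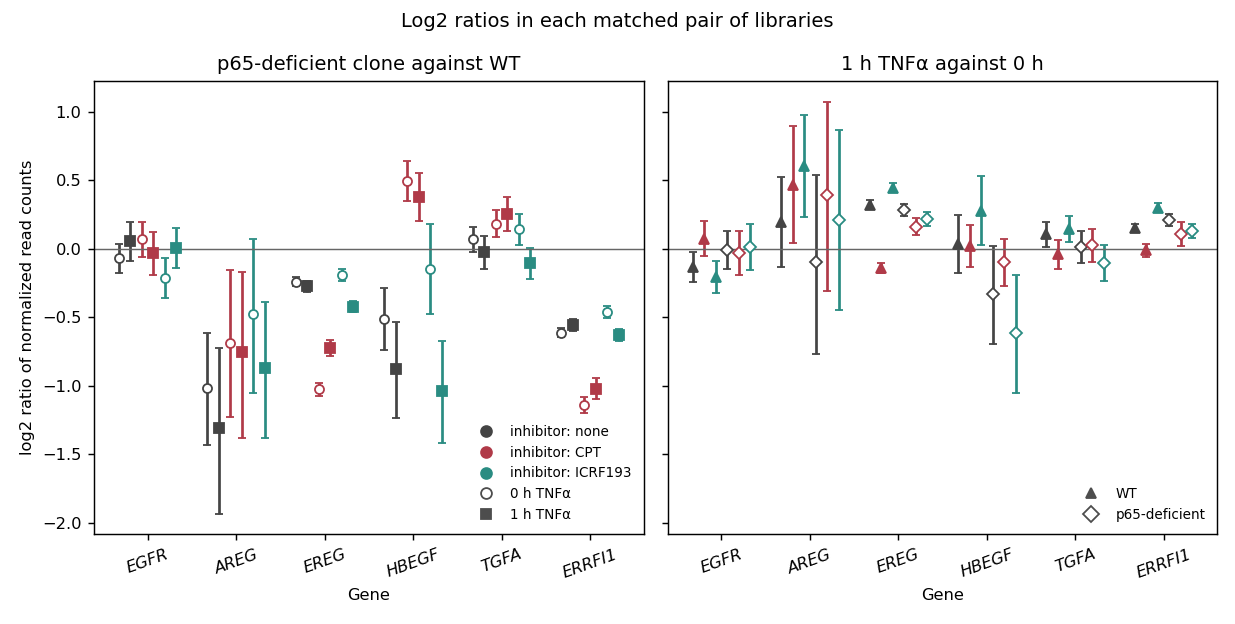
Log2 ratios of normalized read counts (vertical axis) for each gene (horizontal axis) in each of 6 matched pairs, for the p65-deficient clone against WT (left) and for 1 h TNFα against 0 h (right); bars are exact 95% counting intervals. EREG and ERRFI1 lie below 0 in all 6 pairs on the left, HBEGF lies above 0 only in the 2 CPT pairs, and on the right the EREG ratios reach from -0.14 in WT cells with CPT to 0.45 in WT cells with ICRF193.

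The CPT effect was not called different between 1 h and 0 h TNFα for any of the 6 genes, with 0 unadjusted p values under 0.05 by edgeR and 0 by DESeq2. Over all 14573 genes 1 was called (0.00686%), and 94 had an unadjusted p under 0.05. The difference was 0.30 for AREG (95% interval -0.40 to 0.99) and -0.30 for EREG (-0.79 to 0.19), and EREG passed without the clone pair at 0 h (-0.70, adjusted p = 0.019; range over the alternatives 0.019 to 1.0).

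The genes with the most similar course over the 12 libraries were found by Pearson's correlation of log2 values among 10229 genes with a mean of at least 100 reads. For HBEGF these were TUFM (r = 0.982), APLP2 (0.980) and ID3 (0.980), and for ERRFI1 they were KCTD20 (0.993), DENND5A (0.992) and PPP4R2 (0.990). For EREG they were PTPDC1 (0.976), HEATR5B (0.972) and SCO1 (0.965), and for AREG SMAP2 (0.944), RRN3 (0.936) and CLCN3 (0.934). For EGFR they were SLC46A1 (0.949), COX10 (0.944) and DLEU1 (0.942), and for TGFA SAV1 (0.957), DNAJB1 (0.926) and ZNF436 (0.926). Among the members themselves EREG and ERRFI1 were most alike (r = 0.939), and HBEGF ran against ERRFI1 (-0.771) and EGFR (-0.759). All these values rest on the same 12 libraries. They also hold steps that many genes share, between CPT and the rest and between the cell lines.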

How the data were processed

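Total RNA of HCT116 cells had been made into strand-preserving RNA-seq libraries. Per the labels and file headers, the authors trimmed the reads with Trimmomatic, aligned them to hg19 with STAR and deposited raw counts per gene, made with featureCounts 1.5.0 over exons of a UCSC annotation, without options for strand, multi-mapped or ambiguous reads. The 12 libraries (1 per condition, 8101212 to 22051046 reads) were grouped by the labels.

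From these counts, levels were obtained with DESeq2 (1.42.0) size factors, and ratios of single pairs with 95% intervals by the exact Clopper-Pearson method for counting error alone. Changes were tested with edgeR (4.0.16) in R 4.3.3: TMM, filterByExpr, glmQLFit and glmQLFTest, the matched pair as a block, and Benjamini-Hochberg adjustment over all genes tested. The fit of each of the 9 comparisons was first run on simulated counts with 200 changed genes. These changed alike in every pair, so the run checks the fitting code and not the p-values of the real pairs. Similarity used log2(normalized count + 0.5). Nothing shows that libraries came from separate cultures.

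Named were the 6 genes, EGFR-AS1, up to 3 pathway genes per direction or comparison, the 3 most similar genes per member, and checks; other genes are named to complete a count. Members and lists were chosen with earlier results of these data known. Alternatives were DESeq2 size factors, total counts, no filter, DESeq2, no block and omission of each pair. For single pairs they were TMM, total counts and a pseudocount of 0.5.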

Additional observations from a re-analysis of the deposited data

Results flagged for a closer look

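The response to CPT differed between the p65-deficient clone and WT cells in 3 of the 6 genes by the test of the difference itself (edgeR quasi-likelihood, 2 pairs of libraries in each cell line). Over all 14573 genes tested, 2.39% were called with a larger and 2.38% with a smaller value in the clone. The log2 fold change of HBEGF was larger in the clone by 1.07 (adjusted p = 0.00012), and it rose in 2 of 2 pairs of either cell line. The log2 fold change of ERRFI1 differed by -0.52 (adjusted p = 0.00098) and that of EREG by -0.64 (adjusted p = 0.0024), both with the deeper fall in the 2 pairs of the clone. DESeq2 did not call the difference for EREG (adjusted p = 0.50; range over the alternatives 2.3e-16 to 0.50). Without inhibitor, ERRFI1 and EREG already stood lower in the clone, and so did HBEGF. The 1 h libraries of the clone had 8101212 and 8154407 reads and the corresponding WT libraries 17962708 and 19759677. The 0 h pairs were of similar depth, and in them alone the log2 ratios of the clone and of WT cells were 2.03 and 1.03 for HBEGF, -1.73 and -1.21 for ERRFI1 and -0.87 and -0.083 for EREG.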

How the results depend on the processing

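No condition has a replicate, so the matched pair of libraries served as the replicate block. Over 504 refits of the 6 genes, 449 kept their direction and their side of the threshold, 18 lost the call, 9 gained one and 28 changed sign, all 28 for values that were called neither before nor after. For 360 alternative values of single pairs, 349 stayed inside the counting interval of the ratio and 11 left it, all of them for EREG or ERRFI1, whose many reads make the intervals narrow. The numbers of genes called depended more on the settings; the cause was not tested.

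Without the replicate block the number of genes called was 3 for ICRF193 (304 with the block), 0 for TNFα in WT cells (91), 0 for TNFα in the clone (62), 0 for the difference between these TNFα effects (35), 2074 for the clone against WT (4460), 343 for the CPT effect between cell lines (696) and 0 for that between TNFα times (1). With DESeq2 it was 83 for ICRF193, 26 for TNFα in WT cells, 2 in the clone, 10 for their difference and 148 for the CPT effect between cell lines. Without a filter on low counts it was 143 for TNFα in the clone, 132 for the difference of the TNFα effects, 1096 for the CPT effect between cell lines and 21 for that between TNFα times. With total counts it was 36 for TNFα in the clone. The 2 pairs of similar depth, an alternative chosen after seeing the data, gave 521 genes for the clone against WT.

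Leaving out 1 pair at a time gave 166 to 323 genes for ICRF193, 60 to 372 for TNFα in WT cells (372 without the CPT pair, 60 without the ICRF193 pair), 14 to 581 in the clone (14 without the pair that had no inhibitor, 581 without the ICRF193 pair), 5 to 99 for their difference, 277 to 1697 for the CPT effect between cell lines (277 without the clone pair at 0 h, 1697 without the WT pair at 1 h) and 7 to 63 for that between TNFα times. Where this left a cell line or time with 1 pair, that pair was assumed to vary like the others. Scaling by total counts moved the share of higher calls from 47.0% to 57.6% for the clone against WT, from 56.5% to 69.4% for TNFα in the clone and from 26.6% to 37.6% for ICRF193. At this depth the 29 to 162 reads of AREG limit what can be seen for it: its 95% interval for ICRF193 spanned -0.21 to 0.26.

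The log2 values that changed sign were small for the most part. Scaling by total counts gave 0.026 for EGFR and 0.013 for TGFA after TNFα in the clone, 0.0088 for EGFR in the clone against WT, -0.015 for EGFR in the CPT effect between cell lines and -0.0049 for HBEGF in that between TNFα times. Without the replicate block the values were 0.0010 for EGFR after TNFα in the clone, 0.00026 for EREG and 0.013 for ERRFI1 in the difference of the TNFα effects, and 0.032 for HBEGF in the clone against WT; the 2 pairs of similar depth gave 0.031 for the latter. Without the filter ERRFI1 stood at 0.00099 in the difference of the TNFα effects. With 1 pair left out at a time, AREG under ICRF193 ranged from -0.034 to 0.20. After TNFα in the clone EGFR ranged from -0.0084 to 0.014 and TGFA from -0.032 to 0.027. In the difference of the TNFα effects EREG ranged from -0.13 to 0.15 and ERRFI1 from -0.083 to 0.067. EGFR ranged from -0.042 to 0.010 in the clone against WT and from -0.092 to 0.11 in the CPT effect between cell lines. In the CPT effect between TNFα times the ranges were -0.70 to 0.11 for EREG, -0.53 to 0.72 for HBEGF, -0.23 to 0.054 for TGFA and -0.40 to 0.14 for ERRFI1.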
